A study of Mus musculus with 9 samples.

Results

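The transcripts described here are those whose signal fell when tamoxifen was given to mouse embryonic stem cells carrying a tamoxifen-dependent Zscan4 fusion, while the same fusion without tamoxifen left their signal near that of a control clone. They were chosen by measured values: 232 probes met the rule, of 23191 that were well above background on every control and every untreated array, which is 1.00%, and of 42006 distinct probes on the array. A probe was taken when its signal was well above background on all 3 control and all 3 untreated arrays, its mean log2 ratio was at least 1.2 lower with tamoxifen than without, its mean differed by less than 0.5 between the untreated fusion clone and the control clone, and its highest array with tamoxifen lay below its lowest array without. The size of the fall, the closeness of the 2 untreated means and the separation of the arrays are therefore conditions of the choice and are given as description only.

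All 9 arrays carried RNA of V6.5, a male mouse embryonic stem cell line of hybrid C57Bl/6 x 129 background, grown in medium with LIF on gelatin. The control group was V6.5 clone #2, a control transfection labelled Neo, cultured for 3 days. The group called Tmx- here was ZERT2 clone #18, transfected with pCAG-Zscan4-ERT2 and not given tamoxifen, and the group called Tmx+ was the same clone with 200 nM tamoxifen, each cultured for 2 days. Each group held 3 arrays of 1 clone, so the clone, the culture time and the fusion cannot be told apart between Tmx- and control, and control cells given tamoxifen were not analysed here.

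Zscan4 is a family of zinc-finger genes that mouse embryonic stem cells express in bursts, in a small part of the cells at any one time, and it is known from the cleavage-stage embryo and from telomere maintenance. ERT2 is a mutant hormone-binding domain of the estrogen receptor: a protein fused to it is held in the cytoplasm until tamoxifen binds, and then enters the nucleus. A fall with tamoxifen therefore compares separate arrays of 1 clone, without and with release of the fusion protein, with any effect of tamoxifen itself included. In such bulk RNA, fewer cells expressing a transcript and less of it per cell cannot be told apart.

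The files named each probe by an identifier and a 60-base sequence and gave no gene. No gene-by-gene pathway list or cell type marker could be applied, and the embryonic stem cell identity of the samples was not checked against markers. The transcripts are therefore shown by the sequences that measured them. The 12 probes with the largest falls on M, the scale defined below, are printed first, 5′ to 3′ as deposited. Capitals mark bases that 2 members share at the overlap of their ends, or the polyadenylation hexamer AATAAA.
Z00027744-1: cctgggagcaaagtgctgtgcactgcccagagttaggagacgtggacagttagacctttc
Z00002490-1: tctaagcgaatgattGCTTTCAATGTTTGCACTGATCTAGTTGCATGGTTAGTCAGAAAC
Z00074574-1: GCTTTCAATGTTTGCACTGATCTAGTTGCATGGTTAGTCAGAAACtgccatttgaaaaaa
Z00014876-1: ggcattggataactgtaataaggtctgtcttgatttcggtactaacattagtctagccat
Z00015007-1: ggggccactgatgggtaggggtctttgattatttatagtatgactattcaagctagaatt
Z00026277-1: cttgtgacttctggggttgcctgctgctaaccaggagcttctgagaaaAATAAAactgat
Z00020928-1: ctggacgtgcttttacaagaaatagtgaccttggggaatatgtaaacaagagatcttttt
Z00075678-1: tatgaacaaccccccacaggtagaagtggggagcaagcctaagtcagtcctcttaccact
Z00004889-1: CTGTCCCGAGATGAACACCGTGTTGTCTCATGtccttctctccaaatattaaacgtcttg
Z00076863-1: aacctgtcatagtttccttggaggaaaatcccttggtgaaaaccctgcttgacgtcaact
Z00022573-1: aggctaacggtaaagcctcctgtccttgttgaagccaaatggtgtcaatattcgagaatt
Z00075322-1: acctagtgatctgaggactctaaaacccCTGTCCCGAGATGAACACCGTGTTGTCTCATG

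The sequences of the 2 members that could be placed on the genome were also taken from the files. Of 352 probes on the array that matched a RefSeq promoter window (250 bases before to 50 after a gene's start, in GRCm38.p6) over at least 50 bases at 98% identity or more, 2 were members, and no member matched a miRNA hairpin. Bases 1 to 54 of Z00038074-1 matched chr9:50505002-50505055 on the plus strand. That stretch lies inside the interval of Plet1, a protein-coding gene of the plus strand at chr9:50494525-50505639 that is known as a placental and epithelial membrane protein, 584 bases from the gene's end, and opposite in strand to the upstream window of the long noncoding RNA gene Plet1os. All 60 bases of Z00072951-1 matched chr5:137612512-137612571 on the minus strand. That stretch lies inside the interval of Fbxo24, a gene for an F-box protein, at chr5:137612505-137625078, 7 bases from the end with the lower coordinates, and opposite in strand to the upstream window of the long noncoding RNA gene Gm36266. Whether either stretch is exonic was not determined here. Capitals mark AATAAA.
Z00038074-1: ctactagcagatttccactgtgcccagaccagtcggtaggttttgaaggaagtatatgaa
Z00072951-1: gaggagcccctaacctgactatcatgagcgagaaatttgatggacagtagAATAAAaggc

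Each array compared a sample, labelled with Cy3, with a common reference labelled with Cy5, a pool of RNA from 11 mouse cell lines mixed with RNA of 129ES cells. The level of a transcript is called M here: the log2 of sample over reference, after background correction and loess normalisation, so that 0 is the level of the reference and a change of 1 is a 2-fold change. The choice of members was made on the scanner software's own processed log ratio, turned to the same direction. Mean Cy3 intensity per array was 1243 to 2151, and in that channel 58.0% to 63.3% of probes stood well above background. The control arrays and Tmx- 1 shared 1 slide, Tmx- 2 and 3 shared a second slide with Tmx+ 1 and 2, and Tmx+ 3 lay on another. Array Tmx- 1 stood farther from its group than any other array, with a residual SD of 0.121 in M against 0.0503 to 0.0774 for the others. Nothing in the labels says that the 3 arrays of a group came from separate cultures, so the spread between them may be technical.

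With tamoxifen, the 232 members fell by a median of 1.16 in M, a 2.23-fold lower level, against a median of 0.01 for the change over the 23191 probes that met the background condition. The change ran from -3.16 to -0.24, with quartiles at -1.44 and -0.66. A fall of 2-fold or more was measured for 139 members, and of 4-fold or more for 13. It was from 0.5 to 1 in 56 members and under 0.5 in 37. All 232 were called lower by limma at an adjusted p under 0.05, where 17.2% of the 24757 tested probes were called lower; this contrast made the choice, so nothing is read from that count.

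**Figure D1:**
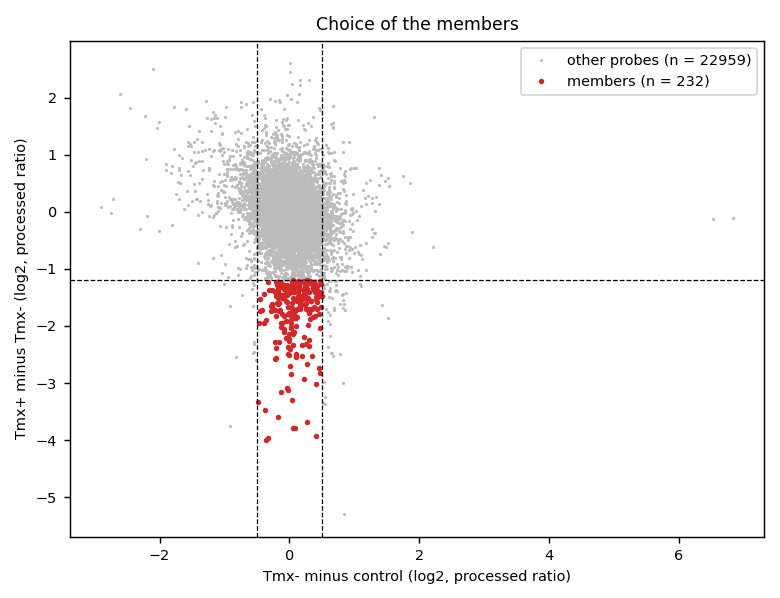
Each dot is 1 of the 23191 probes above background in the control and Tmx- arrays, placed by the change from control to Tmx- (horizontal, log2 of the processed ratio) and from Tmx- to Tmx+ (vertical, same scale). The 232 members, in red, fill the box that the dashed lines cut out below -1.2 and between -0.5 and 0.5, and 49 further probes to their right and 14 to their left fell as far.

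The largest fall on M was that of Z00027744-1. Its M was -0.15, -0.11 and -0.15 in control, 0.20, 0.06 and 0.08 in Tmx-, and -3.15, -3.17 and -2.83 in Tmx+. Its level was near that of the reference in both untreated groups and 8.96-fold lower with tamoxifen (change -3.16, SE 0.084), with no overlap of the groups. Its mean raw Cy3 intensity went from 1432 to 184, so the fall was measured well above background on both sides. The order depends on the scale: on the processed ratio Z00020928-1 changed by -3.99 and Z00027744-1 by -3.68.

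The next largest falls on M belonged to a pair of probes that overlap in sequence. Z00002490-1 had M of 0.68, 0.70 and 0.60 in control, 0.72, 0.82 and 0.67 in Tmx-, and -2.20, -2.20 and -2.19 in Tmx+. Z00074574-1 had 0.64, 0.68 and 0.58 in control, 0.69, 0.73 and 0.63 in Tmx-, and -2.32, -2.10 and -2.07 in Tmx+. The last 45 bases of the first are the first 45 of the second, and their changes of -2.93 and -2.85 differed by 0.0838. They count as 2 members, though they share most of their sequence.

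Z00014876-1, Z00015007-1 and Z00026277-1 were above the reference without tamoxifen and below it with tamoxifen. Z00014876-1 stood at 1.83, 1.84 and 1.84 in control and 1.75, 1.53 and 1.48 in Tmx-, and at -0.98, -0.93 and -0.96 in Tmx+. Z00015007-1 stood at 1.77, 1.83 and 1.82 in control and 1.64, 1.58 and 1.52 in Tmx-, and at -0.71, -0.76 and -0.79 in Tmx+. Z00026277-1 stood at 1.72, 1.80 and 1.73 in control and 1.91, 1.84 and 1.79 in Tmx-, and at -0.42, -0.39 and -0.52 in Tmx+. Their falls were 5.82-fold, 5.04-fold and 4.89-fold, and in each the 6 untreated arrays lay together and the 3 tamoxifen arrays far below them. Z00014876-1 and Z00015007-1 were slightly lower in Tmx- than in control, and Z00026277-1 slightly higher.

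Among the other 6 of the 12 largest falls, M fell by 2.03 to 2.19. Z00020928-1 had 0.86, 0.84 and 0.81 in control, 0.73, 0.47 and 0.41 in Tmx-, and -1.60, -1.80 and -1.57 in Tmx+, and it was well above background on 2 of the 3 Tmx+ arrays. Z00075678-1 had 0.14, 0.12 and 0.11 in control, 0.66, 0.49 and 0.47 in Tmx-, and -1.52, -1.54 and -1.62 in Tmx+. In Z00075678-1 all 3 Tmx- arrays lay above the control arrays, so the tamoxifen arrays were lower by less against control than against Tmx-. Z00076863-1 had 0.96, 0.92 and 0.95 in control, 1.09, 0.84 and 0.90 in Tmx-, and -1.13, -1.12 and -1.12 in Tmx+. Z00022573-1 had 0.93, 0.94 and 0.94 in control, 1.30, 1.02 and 1.11 in Tmx-, and -1.03, -0.85 and -0.87 in Tmx+. In both, array Tmx- 1 was the highest of the 9.

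**Figure D2:**
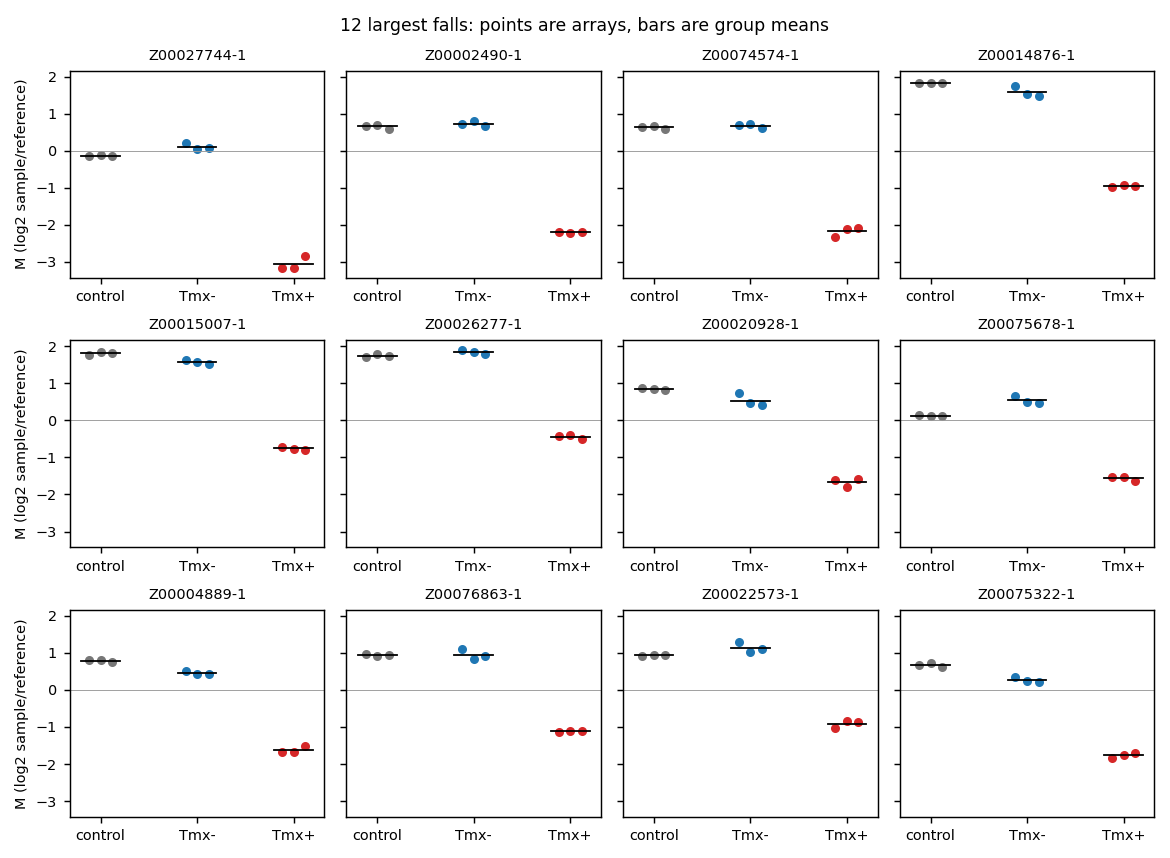
M (log2 of sample over reference) in each of the 9 arrays for the 12 members with the largest falls, 1 panel each; points are arrays, short bars are the means of 3 arrays, and the grey line is the reference level. In every panel the control and Tmx- points lie above the Tmx+ points, which are at -0.39 or lower, with Z00027744-1 reaching -3.17.

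The 20 largest falls on M ranged from 3.62-fold to 8.96-fold. In all 20, every Tmx+ array lay below every Tmx- and control array on M. Of the 20, 16 were above the reference in control, and control M ran from -1.56 to 1.84. Mean raw Cy3 in control spanned 219 to 4607, so the group was not made of the brightest probes alone, but no dimmer member entered it. The 39 members below 100 in control changed by a median of -0.41 on M and -1.65 on the processed ratio. On all Tmx+ arrays 16 of the 20 largest falls were still well above background. Of the others, Z00020928-1, Z00064530-1 and Z00057626-1 were so on 2 arrays and Z00046636-1 on 1. Z00041077-1 had the widest spread with tamoxifen, at -3.82, -3.08 and -3.68, against -1.53, -1.56 and -1.61 in Tmx-.

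In control cells the members lay higher against the reference than array probes in general. Their median M was 0.34, and that of all 23191 was 0.01. Their raw signal was not higher: the median raw Cy3 in control was 267 for members and 442 for all 23191. An excess of 2-fold or more was found in 48 members (20.7%) and in 5.71% of all 23191, and a deficit of 2-fold or more in 29 members (12.5%) and in 11.4%; the difference in these shares was not tested. The level with tamoxifen differed by class: the median M of the 48 high members went from 1.54 in Tmx- to 0.22 in Tmx+, that of the 29 low members from -1.61 to -2.62, and that of the other 155 from 0.28 to -0.72. Their median changes were -1.33, -1.27 and -0.97. The 29 low members fell nearly as much as the 48 high ones, so the fall did not follow the level in 1 direction. A larger fall of the high members was known from earlier results of these arrays, so these medians stand here as a description. The fall on M also varied with brightness, and its part in these medians was not tested.

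Above the reference stood 150 members in control, 159 in Tmx- and 52 in Tmx+. At least 2-fold above it stood 48, 57 and 5, and at least 2-fold below it 29, 23 and 82. In 107 members the mean crossed from above the reference in Tmx- to below it in Tmx+. The direction against the reference is a property of the pool, which itself holds embryonic stem cell RNA.

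The 3 members with the highest control level kept an excess over the reference with tamoxifen. Z00028186-1 had M of 2.98, 2.90 and 3.01 in control, 3.63, 3.31 and 3.40 in Tmx-, and 1.98, 2.00 and 2.03 in Tmx+. Z00025932-1 had 2.56, 2.43 and 2.27 in control, 2.52, 2.52 and 2.05 in Tmx-, and 1.08, 1.01 and 0.90 in Tmx+. Z00021994-1 had 2.35, 2.45 and 2.30 in control, 2.51, 2.49 and 2.49 in Tmx-, and 1.32, 1.27 and 1.16 in Tmx+. All 3 fell by 1.25 to 1.44, and all 3 stayed above the reference on every array. At the other end Z00024960-1 stood at -7.23, -7.20 and -7.15 in control, -7.13, -7.17 and -7.02 in Tmx-, and -7.62, -7.68 and -7.36 in Tmx+. Its raw Cy3 intensity was 105 in Tmx- and 81.1 in Tmx+, close to background, while its reference channel was bright.

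The Plet1 probe Z00038074-1 had M of 2.28, 2.29 and 2.27 in control, 2.93, 2.54 and 2.63 in Tmx-, and 1.28, 1.25 and 1.22 in Tmx+. Its level was above the reference on every array and fell by 1.45 with tamoxifen. All 3 Tmx- arrays were above all 3 control arrays. The Fbxo24 probe Z00072951-1 had M of -0.21, -0.28 and -0.24 in control, 0.23, -0.03 and 0.03 in Tmx-, and -1.04, -1.02 and -0.87 in Tmx+. It fell by 1.05, and it too was higher in Tmx- than in control on every array. Each probe lies inside the interval of a named gene, but the strand of Fbxo24 was not determined here and neither gene's exons were read. These are therefore values of the probes, not of a named transcript.

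Against the control clone the members were nearly level without tamoxifen, as the choice requires. The change in M from control to Tmx- had a median of 0.06 and ran from -0.41 to 0.49, with 154 members higher and 78 lower. Of the 232, 50 were called higher in Tmx- (limma, adjusted p under 0.05), where 10.4% of the tested probes were called higher, and 20 were called lower, where 11.1% were. The count of higher calls moved with the treatment of the slide. All control arrays and 1 of the 3 Tmx- arrays lay on the first slide, and the correlation within slides was 0.547. With the slide as a fixed block 81 members were called higher and 14 lower, and with the slide as a random block 69 and 14. The fixed block sets control against array Tmx- 1 alone, which stood farthest from its group (residual SD 0.121). Without control 1, 2 or 3, the members called lower were 11, 9 and 10, and without Tmx- 1, 2 or 3 they were 30, 13 and 10; without control 3 those called higher were 32. With median centring in place of loess the counts were 43 higher and 7 lower, and on Cy3 alone 4 and 0. On the deposited value table, which holds 161 of the members, they were 28 and 7. Shares of all tested probes are given for the main fit only, so nothing is read from the counts in these other settings. In 122 members the arrays of Tmx- and control overlapped, and with no share over all probes beside it nothing is read from this count. With tamoxifen all 232 lay below control, by a median of 1.00, and 228 were called lower, where 18.4% of tested probes were; this contrast is the sum of the 2 that the rule used.

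**Figure D3:**
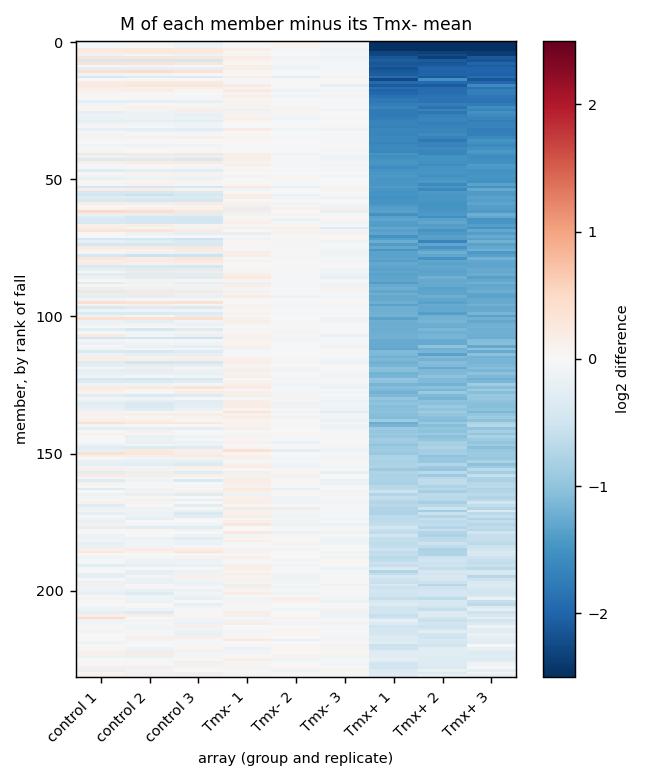
Each row is 1 of the 232 members, ordered by the size of its fall, and each column an array; colour is M minus the member's mean over the 3 Tmx- arrays (log2, colour limited at 2.5 either way). The control and Tmx- columns are pale with shades of both signs, and the 3 Tmx+ columns are blue throughout, fading down the figure from the -3.16 of the first member to the -0.24 of the last.

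The arrays of each group had close medians over the members. The median of M minus the Tmx- mean was -0.05, -0.06 and -0.07 on control arrays 1 to 3, 0.07, -0.02 and -0.04 on the Tmx- arrays, and -1.19, -1.16 and -1.14 on the Tmx+ arrays. The median SD between the 3 arrays of a member was 0.0426 in control, 0.0874 in Tmx- and 0.0732 in Tmx+, against 0.0397, 0.08 and 0.0455 over the 23191 probes. The widest Tmx- spreads were those of Z00035258-1, at 2.28, 1.65 and 1.78, and Z00024962-1, at 1.52, 1.08 and 0.91. On M the Tmx+ arrays lay below all Tmx- arrays for 230 members and for 21.9% of tested probes. The Tmx+ arrays lay below all control arrays for 227 members. No share over all probes is given for that count, so nothing is read from it.

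The place of 1 array withheld from the rule is given as description only. With Tmx+ 1 left out, 235 of the 236 chosen lay below all Tmx- arrays on it, where 35.5% of the probes meeting the background condition did. With Tmx+ 2 left out these were 234 of 235 (35.2% of all), and with Tmx+ 3 left out 236 of 238 (33.2%). With Tmx- 1 left out, 227 of 227 lay above all Tmx+ arrays on it (40.5% of all), with Tmx- 2 left out 231 of 232 (39.7%) and with Tmx- 3 left out 237 of 237 (39.6%). The median log2 ratio on the withheld array, against the mean of the other condition, was -1.52 to -1.58 for the Tmx+ arrays and -1.58 to -1.67 for the Tmx- arrays, taken as Tmx+ minus Tmx-. The withheld array was not used to choose those probes, though the 5 other Tmx- and Tmx+ arrays were, and all came from the same clone. It was compared with arrays that had made the choice, and the 3 arrays of a group may be technical repeats. Nothing is therefore read from these counts.

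Within the slide that held both conditions, Tmx+ 1 and 2 against Tmx- 2 and 3 gave a median of -1.12, with changes from -3.23 to -0.20. The rule used these arrays and required the Tmx+ arrays to lie below the Tmx- arrays, so this value is a description, and the part of the slide was not tested by it. The Cy3 channel alone gave a median change of -1.12, and the Cy5 channel, which carried the same reference on every array, -0.05, with a range from -0.63 to 0.31.

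The size of the fall on M depended on the brightness of the probe. The 41 members with a mean raw Cy3 of at least 1000 in control fell by a median of 1.47 on M and 1.49 on the processed ratio. Those from 200 to 1000, 100 members, fell by 1.30 and 1.67, and those from 100 to 200, 52 members, by 0.68 and 1.5. The 39 members below 100 fell by 0.41 on M and 1.65 on the processed ratio, with median raw Cy3 going from 94.4 in Tmx- to 74.6 in Tmx+. The 2 scales gave close medians for bright members and unlike ones for dim members; an offset of 50 is part of M and not of the processed ratio. The falls of the bright members ran from 1.22 to 3.16 on M, with an SD of at most 0.193 among their Tmx+ arrays and all 41 well above background with tamoxifen.

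**Figure D4:**
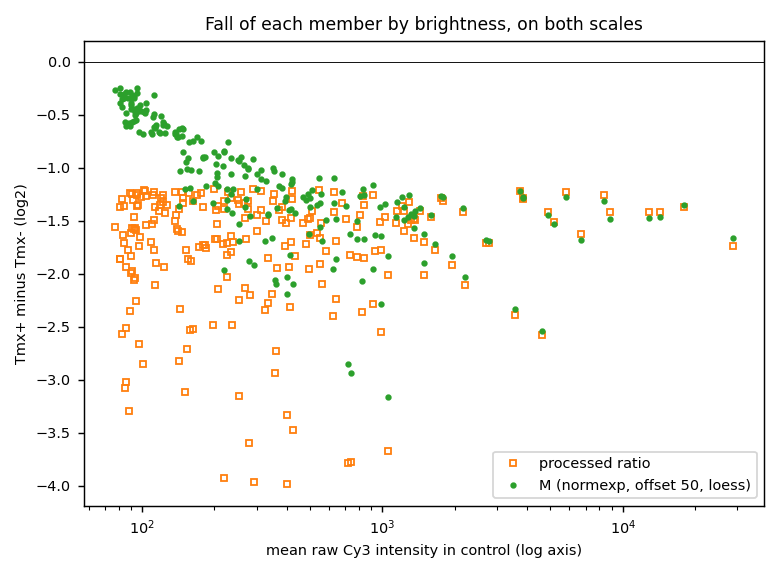
The fall of each of the 232 members (vertical, log2 Tmx+ minus Tmx-) by its mean raw Cy3 intensity in control (horizontal, log axis), on M in green dots and on the processed ratio in open orange squares. Above an intensity of 1000 the medians are -1.47 and -1.49, and below 100 the M dots rise toward 0, to -0.24 at most, while the squares all stay at or below -1.2, the limit of the choice.

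In the brightest member, Z00005948-1, M was -0.29, -0.32 and -0.31 in control, -0.24, -0.24 and -0.24 in Tmx-, and -1.87, -1.90 and -1.94 in Tmx+, with raw Cy3 of 28871 in control. In Tmx+, 179 members remained well above background on all 3 arrays, 14 on 2, 16 on 1 and 23 on none. For those 23 only a lower limit of the fold can be given, the Tmx- mean against the dimmest signal well above background or the probe's own, whichever was higher, and this ran from 1.17-fold to 2.13-fold. These limits hold on the Cy3 values after loess and normalisation between arrays only, and are open to dye bias without a dye swap. The highest was that of Z00028998-1, for which the Cy3 channel alone changed by -1.01 and raw Cy3 went from 155 to 75.9, smaller folds than that limit. In 1 member, Z00025192-1, raw Cy3 was 84.1 in Tmx- and 84.3 in Tmx+, and M fell by 0.26; its raw signal gave no fall. The reference channel was well above background on all 9 arrays for 210 members and on none for 4.

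Some members shared sequence with another probe, and whether the probes of such a pair read 1 transcript was not determined. Of the 232, 21 belonged to 12 pairs of probes that shared sequence, 9 of them between 2 members and 3 between a member and a probe outside the rule. The 9 pairs of members shared 25 to 58 bases, end to end, and their falls differed by 0.00696 to 0.406 with a median of 0.0609. The other 211 members shared no such sequence. Beyond the 2 pairs printed above, these are the pairs of members, with the shared bases in capitals.
Z00025726-1: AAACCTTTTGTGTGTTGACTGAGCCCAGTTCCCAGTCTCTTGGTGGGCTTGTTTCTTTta
Z00074409-1: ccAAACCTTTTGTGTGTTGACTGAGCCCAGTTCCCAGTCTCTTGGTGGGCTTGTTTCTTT
Z00071847-1: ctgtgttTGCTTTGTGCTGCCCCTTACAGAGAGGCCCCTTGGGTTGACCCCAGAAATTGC
Z00073883-1: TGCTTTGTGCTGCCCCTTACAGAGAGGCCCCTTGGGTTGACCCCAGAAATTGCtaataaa
Z00028257-1: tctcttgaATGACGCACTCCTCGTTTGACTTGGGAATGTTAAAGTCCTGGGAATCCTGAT
Z00074431-1: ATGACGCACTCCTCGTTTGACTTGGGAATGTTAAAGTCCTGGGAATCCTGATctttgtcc
Z00035221-1: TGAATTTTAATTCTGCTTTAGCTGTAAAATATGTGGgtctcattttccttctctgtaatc
Z00075197-1: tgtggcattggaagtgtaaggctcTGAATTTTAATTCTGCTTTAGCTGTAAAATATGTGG
Z00042952-1: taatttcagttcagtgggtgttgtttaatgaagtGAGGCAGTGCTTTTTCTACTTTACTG
Z00074150-1: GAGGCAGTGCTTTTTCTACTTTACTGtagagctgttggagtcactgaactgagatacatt
Z00050064-1: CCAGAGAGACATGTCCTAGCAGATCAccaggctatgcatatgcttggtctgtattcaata
Z00056079-1: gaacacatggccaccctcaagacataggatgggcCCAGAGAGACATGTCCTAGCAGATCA
Z00068950-1: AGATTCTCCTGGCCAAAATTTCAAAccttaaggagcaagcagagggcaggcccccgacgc
Z00077459-1: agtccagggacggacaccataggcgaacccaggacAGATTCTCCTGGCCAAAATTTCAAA

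The brightest pair was Z00071847-1 and Z00073883-1, which share 53 bases. Z00071847-1 had M of 1.41, 1.46 and 1.46 in control, 1.43, 1.36 and 1.38 in Tmx-, and -0.06, -0.05 and -0.12 in Tmx+. Z00073883-1 had 1.47, 1.53 and 1.53 in control, 1.45, 1.43 and 1.45 in Tmx-, and -0.02, -0.03 and -0.05 in Tmx+. Their changes of -1.47 and -1.48 differed by 0.0114, with mean raw Cy3 in control of 14225 and 12849. The pair of Z00025726-1 and Z00074409-1, with 58 bases in common, stood near the reference without tamoxifen and fell by 1.67 and 1.62. The pair of Z00068950-1 and Z00077459-1 stood far below the reference in every group, at -1.76, -1.67 and -1.83 and at -1.81, -1.69 and -1.80 in Tmx-, and fell by 1.37 and 1.35.

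The 2 members of the pair that differed most had unequal signals. Z00050064-1 fell by 0.70, from -0.26, -0.44 and -0.51 in Tmx- to -0.94, -1.24 and -1.14 in Tmx+, with raw Cy3 of 143 and 90.3. Z00056079-1, which shares 26 bases with it, fell by 0.30, from -0.19, -0.24 and -0.28 to -0.61, -0.57 and -0.42, with raw Cy3 of 95.2 and 79.6. On the processed ratio they fell by 1.61 and 1.36.

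**Figure D5:**
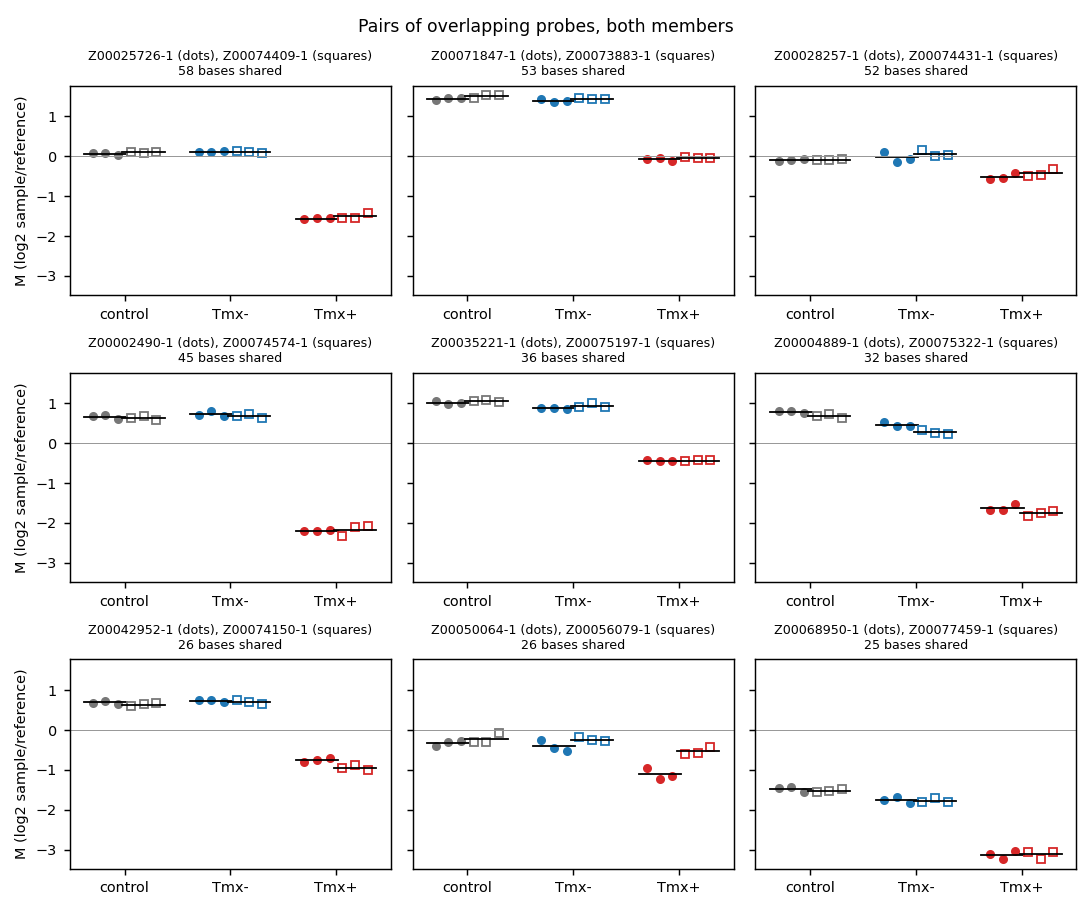
M (log2 of sample over reference) in each array for the 9 pairs of members that share 25 to 58 bases, 1 panel a pair; dots are the first probe, squares the second, and bars the means of 3 arrays. The 2 probes of a pair lie close together in all 3 groups in 8 panels, and in the pair of Z00050064-1 and Z00056079-1 they part in Tmx+, where the falls differed by 0.406.

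The 3 pairs with a probe outside the rule show what the limits of the choice left out. Z00074445-1, a member that fell by 1.22 on the processed ratio, shares 29 bases with Z00059253-1, which fell by 1.102 and so missed the limit of 1.2. On M they fell by 1.02 and 0.88. Z00025192-1 shares 47 bases with Z00055290-1, which did not meet the background condition and fell by 0.11 on M. Z00000570-1 is 86.0% identical over 50 bases to Z00076698-1, which did not meet the background condition either and fell by 0.10 against 0.75. The sequences of the first of these pairs follow, with the shared bases in capitals.
Z00059253-1: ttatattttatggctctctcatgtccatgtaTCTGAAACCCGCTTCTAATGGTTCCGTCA
Z00074445-1: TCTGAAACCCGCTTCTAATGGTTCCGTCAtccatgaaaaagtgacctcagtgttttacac

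At the limit of 1.2 on the processed ratio, the members nearest inside were Z00056147-1 at -1.2006, Z00066404-1 at -1.2015 and Z00045784-1 at -1.2072. Nearest outside were Z00018780-1 at -1.1971, Z00021485-1 at -1.1968 and Z00024989-1 at -1.1941. On M the first 3 changed by -0.91, -0.85 and -0.48 and the others by -0.43, -1.19 and -0.97, so the 2 sides of the limit were mixed on that scale. Of the 295 probes that fell by at least 1.2 and met the background condition, 49 were left out because Tmx- exceeded control by 0.5 or more and 14 because it was lower by as much; none was left out for overlapping arrays.

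The probe sequences of the members were compared in composition with those of array probes in general. The median GC content was 45% in members and in the 23191 probes. AATAAA, searched on the probe's own strand, was in 22 members (9.48%) and in 7.79% of the 23191 probes, and ATTTA, the core of AU-rich elements, in 16 members (6.90%) and 7.29%. A match is a description of the letters on the probe and was not tested.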

How the data were processed

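The data were 9 two-colour Agilent arrays. The authors extracted them with Agilent Feature Extraction 9.5.1.1, per the file headers, and deposited the spot intensities of both channels and a log10 ratio of red over green per spot; per the labels, Cy3 carried the sample and Cy5 the reference on every array, with no dye swap. The deposited value table, whose values were taken as log10 from a comparison with the scanner ratios, was used only as an alternative; for the 161 members in it the changes matched those of the scanner ratios within 0.00034. Its column medians were 2.17 to 2.19, and its centring is not stated. The genome build of the design was not needed.

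Members were chosen on the deposited log10 ratio, sign-turned and multiplied by 3.3219. M was computed with limma 3.58.1 in R 4.3.3 from mean and background intensities: normexp with an offset of 50, loess within arrays, outlier spots (4 to 16 an array) dropped, spots of a probe averaged; no member lacked a value on any array. A linear model of the 3 groups was fitted over 24757 probes with eBayes and Benjamini-Hochberg adjustment at 0.05, after a check on simulated data. No permutation test of 3 arrays against 3 can go below 0.1, two-sided. Sequence overlaps were found with blastn 2.17.0 (at least 85% over 40 bases) and by exact matching of probe ends (at least 20 bases); sequences of genes are RefSeq's, GRCm38.p6. The arrays' number limits the precision.

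Probes set to be named were the 20 largest falls on M and the 3 nearest the limit on each side. So were the 3 highest and 3 lowest in control, the 3 widest in Tmx-, and up to 5 pairs sharing sequence. Not all of these are printed above. The other pairs, Z00005948-1, Z00028998-1 and the 2 probes placed on the genome were named after their values were seen. The members, lists and rules were chosen with earlier results of these data known. The lists of genes and cell markers were not applied, since the files give no gene names. Alternatives were scale, offset, filter, slide, channel, limits and arrays left out; exact end overlaps, a raw Cy3 of at least 100 in control (193 members) and detection on at least 1 Tmx+ array (209 members) were added after seeing the data. The replicate numbers do not pair the arrays.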

Additional observations from a re-analysis of the deposited data

How the results depend on the processing

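The number of members moved with the limits of the rule, to 351 at a fall of 1, 134 at 1.5 and 147 where the clones had to lie within 0.25. Made on M, the rule gave 111 probes (109 of them members), or 145 at an offset of 10 (139 of them members); leaving out 1 array gave 227 to 241. The counts of calls in this section stand without shares over all tested probes, and the rule used or limited these contrasts. Nothing is therefore read from them. Of the members, 139 were called lower with tamoxifen when a 2-fold change was also required, and 222 to 232 with 1 array left out. Called lower in Tmx- than control were 7 with median centring, 7 on the value table and 0 on Cy3 alone, by limma, where 18 members had an unadjusted p under 0.05, and 9 to 30 without 1 array. Called higher were 28 on the value table, 4 on Cy3 alone, 81 with the slide as a fixed block, 80 on the first slide alone and 32 to 49 without 1 array. The median change was -1.31 at offset 10, -1.59 on the processed ratio and on the value table, -1.06 with median centring and -1.27 for members above background on all 9 arrays. The median control level was 0.48 at offset 10 and 0.79 on the processed ratio. Pairs found by blastn were 6, 3 at 95% over 50 bases and 11 by end overlap. For lower with tamoxifen against control, the count ran from 202 to 232.

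Arrays of the same number did not deviate together (correlations from -0.405 to 0.172), so the replicate numbers share only a number; with the replicate block, 228 members were called lower with tamoxifen, 16 lower and 44 higher in Tmx- than control, and 224 lower in Tmx+ than control. Of 903 values for 42 named probes under the alternatives, 896 kept direction and side of the threshold, 7 in Z00018780-1, Z00025192-1 and Z00025932-1 lost their call, and none changed sign. The cause of these shifts was not tested. The members among the named probes were chosen for their fall on these same arrays, so keeping direction and call was largely set by the choice. No share over all probes is given, and nothing is read from the counts for named probes.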
